A study of Homo sapiens with 10 samples.

Results

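The genes described here were the 4 genes of the FOS family (FOS, FOSB, FOSL1 and FOSL2), the 3 genes of the JUN family (JUN, JUNB and JUND) and 3 further early response genes, EGR1, IER3 and MYC. They were chosen by gene symbol and made up 10 of the 62709 entries with counts. All 10 passed the filter on low counts and were among the 15832 genes tested.

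FOS and JUN proteins are the subunits of AP-1, a transcription factor that binds DNA as a pair of proteins joined through leucine zippers. FOS-type proteins need a JUN-type partner, whereas JUN-type proteins can also pair among themselves. Many of these genes are immediate early genes, which are transcribed within minutes of exposure to serum, growth factors or stress without new protein synthesis, largely through ERK, JNK and p38 kinase signalling, and several of their RNAs are short-lived. FOSL1 is known in epithelial tumours, lung adenocarcinoma included, as a subunit that accumulates when ERK signalling is sustained.

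RNA sequencing had been carried out on H441 cells, a human line established from a lung adenocarcinoma and kept in medium with serum. The series set cells with altered TET1, an enzyme that oxidises 5-methylcytosine in DNA, against cells without such alteration. TET1_KO (3 libraries) came from wild-type H441 cells in which the gene had been knocked out with CRISPR-Cas9, and the sources used here do not say whether they were 1 clone. TET1_OE (2 libraries) came from cells transfected with a plasmid for full-length human TET1 and was labelled transient. Lipo (2 libraries, numbered 2 and 3) was labelled wild type without treatment, and its title word was not explained, so it is called by that word here. WT (3 libraries) was wild-type H441 without treatment. Nothing in the labels says that the libraries of a group came from separate cultures, so p-values measure only the spread between these libraries.

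The libraries held 20994462 to 25981097 reads assigned to entries, and the 10 genes took 0.272% to 0.443% of them. TET1 itself had 4, 0 and 8 reads in TET1_KO, 17883 and 20805 in TET1_OE, 0 and 1 in Lipo, and 2, 7 and 0 in WT. The overexpression is therefore visible in the counts, while the knockout cannot be checked by level because the unmodified cells had next to no TET1 reads. Of 12 lung epithelial markers, all 12 had reads, with a summed level of 13904 to 18636 CPM (read counts scaled to a common library size) over the libraries. The sum does not show single markers, some of which differed between groups. SFTPB averaged 49.5 CPM in TET1_KO, 29.7 in TET1_OE, 75.9 in Lipo and 195 in WT. SFTPC, a defining marker of alveolar type 2 cells, was at 0 in TET1_KO, TET1_OE and Lipo. In WT it was nearly absent too, with 2 reads over all WT libraries together (mean 0.0289 CPM). Mitochondrial genes took 5.44% to 7.25% of reads in TET1_KO, 4.74% to 4.89% in TET1_OE, 8.04% to 8.72% in Lipo and 5.47% to 6.15% in WT.

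Levels below are CPM on the effective library size. Fold changes, standard errors (SE) and Benjamini-Hochberg adjusted p-values are from edgeR's quasi-likelihood test over all genes tested, with an adjusted p under 0.05 as the threshold. Every library had at least 264 reads for every one of the 10 genes. In bulk RNA, fewer cells expressing a gene and less RNA per cell cannot be told apart.

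The question put by the knockout is how RNA levels differ between TET1_KO and WT, both of which had next to no TET1 reads. In TET1_KO against WT, FOSB was lower and MYC was higher, and the other 8 genes did not pass the test. That is 2 of 10, against 12.6% of all genes tested in this comparison. This count was 1 without WT 3 and 4 without TET1_KO 2, where 1238 and 1840 of all genes were called. In the fit to all 10 libraries, 1992 were called. The TET1_KO and WT libraries did not overlap for FOSB, FOSL1 and MYC, 3 of 10, against 27.6% of all genes tested. The median log2 fold change of the 10 was -0.08, beside 0.00 over all genes tested.

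Overexpression was compared with Lipo, since the title sets Lipo apart from WT. All 4 FOS family genes passed the test in TET1_OE against Lipo and no JUN family gene did. FOS and FOSB were lower, and FOSL1 and FOSL2 were higher. The 4 of 10 compare with 12.3% of all genes tested. The count was lower without TET1_OE 1, Lipo 2 or Lipo 3, where a group was left with a single library. Fewer of all genes passed there too. With WT as the control the count was 7, and 3953 of all genes were called, against 1950 with Lipo as the control. TET1_OE and Lipo libraries did not overlap for any of the 10, which with 2 libraries a group held for 65.6% of all genes tested. The median log2 fold change was 0.23, beside -0.01 over all genes tested.

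Lipo and WT carry the same treatment label. FOSB, JUND and IER3 were higher in Lipo than in WT, 3 of 10 against 3.7% of all genes tested. The count was lower without Lipo 2 or Lipo 3, where a group was left with a single library. Fewer of all genes passed there too. It was 1 without WT 2 and 5 without TET1_KO 1 or TET1_KO 3. Calls over all genes were 318, 966 and 977 without these libraries in turn, against 586 in the fit to all 10. Lipo and WT libraries did not overlap for any of the 10, which held for 43.6% of all genes tested. The median log2 fold change was 0.39, beside -0.02 over all genes tested. The comparison of TET1_KO shares the WT libraries with that of Lipo, and the comparison of TET1_OE shares the Lipo libraries with it. Over the 4 groups together, 9 of the 10 genes passed the test for any difference, EGR1 being the exception (adjusted p = 0.126), against 38.9% of all genes tested.

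**Figure D1:**
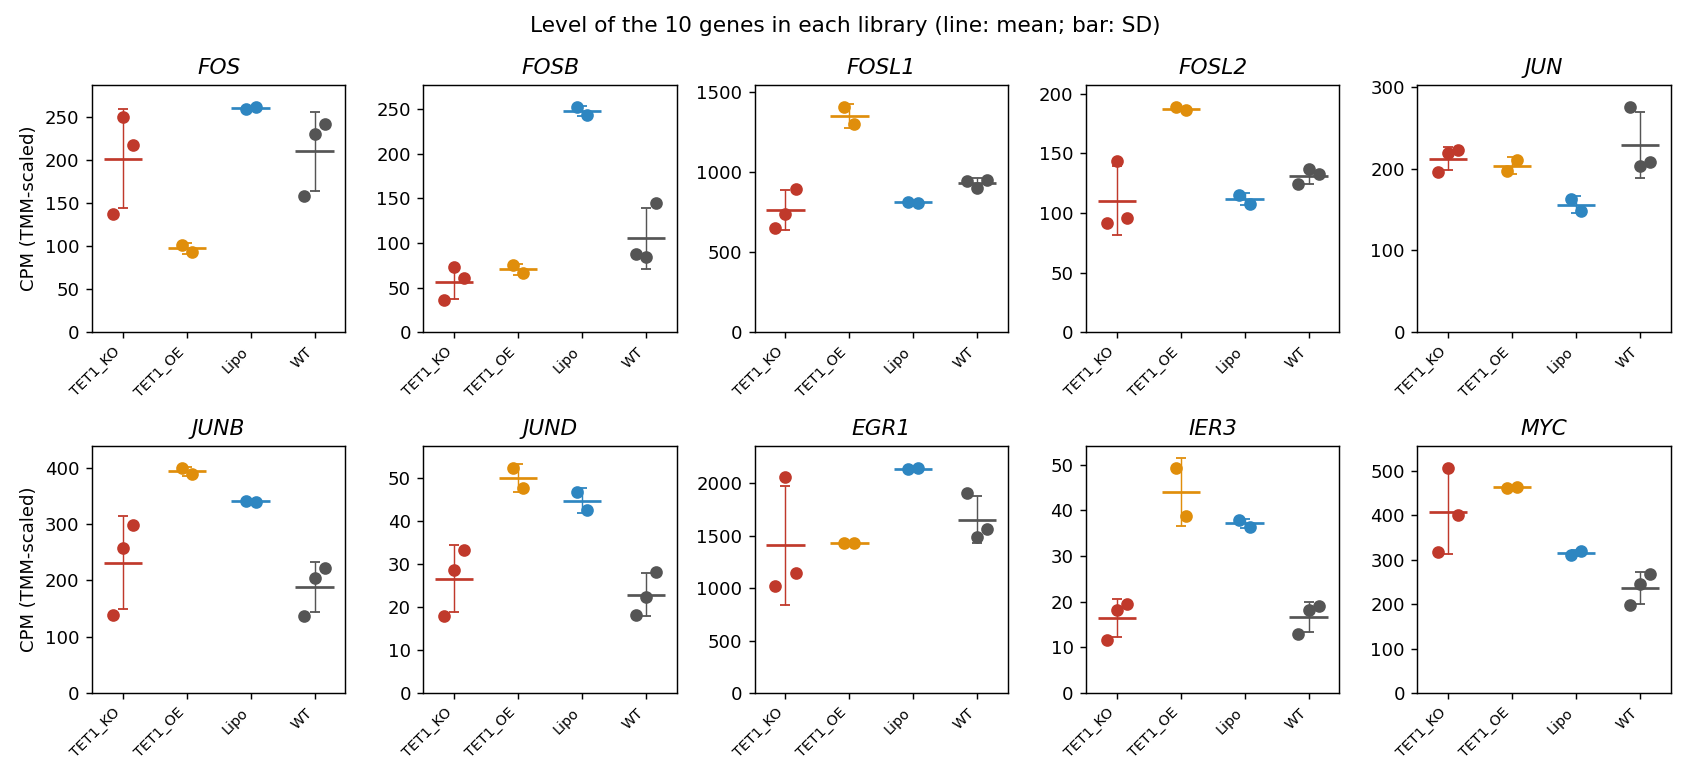
Level of each of the 10 genes in CPM (y axis, linear, from 0) in each library (points), by group (x axis), with the group mean (line) and SD (bar). FOS is lowest in both TET1_OE libraries, FOSB is highest in both Lipo libraries, and JUNB, JUND and IER3 are higher in all 4 TET1_OE and Lipo libraries than in any TET1_KO or WT library.

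**Figure D2:**
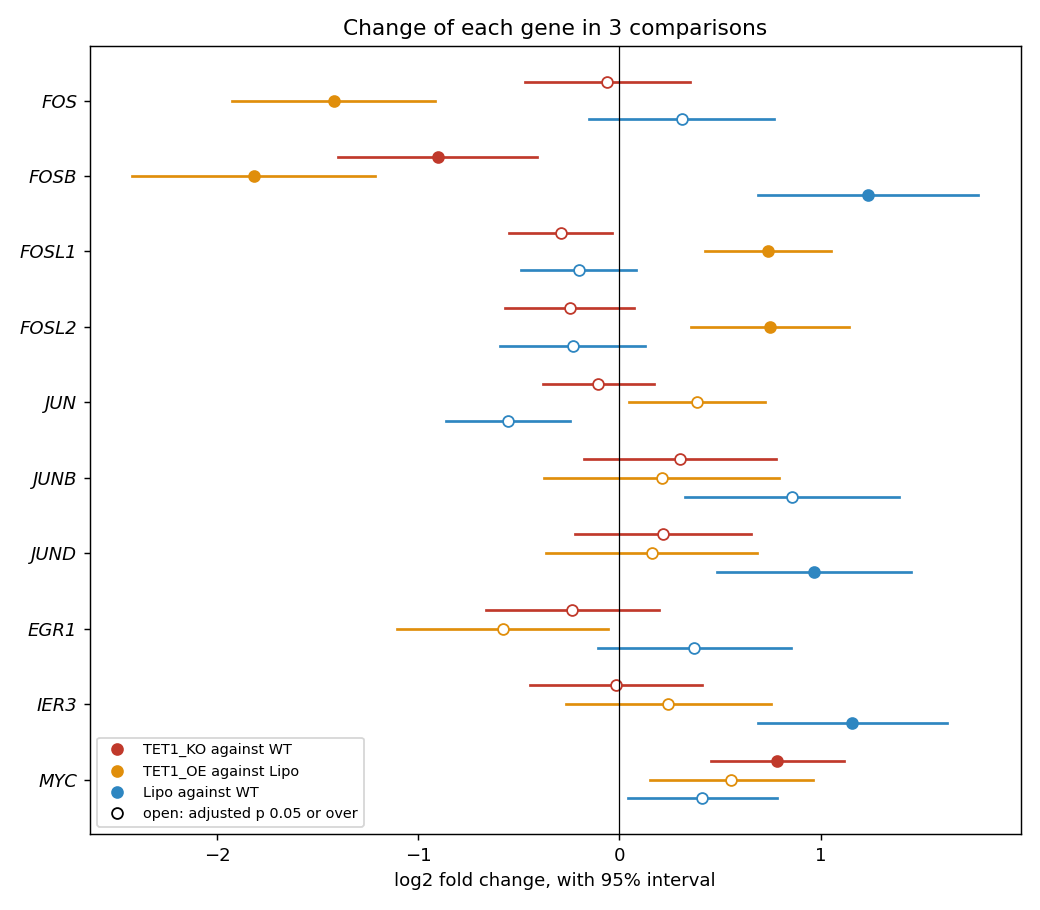
Log2 fold change (x axis) of each gene in TET1_KO against WT, TET1_OE against Lipo and Lipo against WT, with unadjusted 95% intervals, filled where the adjusted p was under 0.05. In TET1_OE against Lipo the filled points of FOS and FOSB lie below 0 and those of FOSL1 and FOSL2 above it.

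FOS, the founding member of its family and a classic serum-induced gene, lies at chr14:75278774-75282230 on the plus strand. Its level was 137, 249 and 217 CPM in TET1_KO, 101 and 92.8 CPM in TET1_OE, 259 and 261 CPM in Lipo and 157, 229.8 and 242 CPM in WT. Both TET1_OE libraries lay below all 8 other libraries, and TET1_KO and WT overlapped. FOS was 2.68-fold lower in TET1_OE than in Lipo (log2 fold change -1.42, SE 0.24, adjusted p = 0.00124), and it stayed past the threshold under each alternative tried for this comparison (adjusted p = 1.30e-19 to 0.0247 over the 19 alternatives). TET1_OE was also lower with WT as its control (log2 fold change -1.11, adjusted p = 0.00239). Between TET1_KO and WT the FOS estimate was near 0, with a 95% interval of -0.47 to 0.35 on the log2 scale (log2 fold change -0.06, adjusted p = 0.885). Lipo against WT did not pass either (log2 fold change 0.31, adjusted p = 0.466).

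FOSB, a close relative of FOS with strong early induction, lies at chr19:45467995-45475179 on the plus strand, where ERCC1 overlaps it without sharing exon bases. It had 35.6, 72.7 and 60.4 CPM in TET1_KO, 74.7 and 65.8 CPM in TET1_OE, 252 and 244 CPM in Lipo and 87.1, 84.2 and 145 CPM in WT. Lipo was above every other library, WT came next, and TET1_OE and TET1_KO overlapped at the low end. FOSB was 1.87-fold lower in TET1_KO than in WT (log2 fold change -0.90, SE 0.23, adjusted p = 0.0193). That call was lost without TET1_KO 3 (adjusted p = 0.0514), without WT 3 (log2 fold change -0.61, adjusted p = 0.108) and with only the groups compared in the fit (adjusted p = 0.0574), out of adjusted p = 7.62e-08 to 0.108 over the 20 alternatives. It was 3.53-fold lower in TET1_OE than in Lipo (log2 fold change -1.82, SE 0.28, adjusted p = 7.89e-04). With WT as the control for TET1_OE, the FOSB estimate was smaller and did not pass (log2 fold change -0.58, adjusted p = 0.119), out of adjusted p = 1.53e-21 to 0.119 over the 19 alternatives. In Lipo it was 2.35-fold higher than in WT (log2 fold change 1.23, SE 0.26, adjusted p = 0.0145), a call lost without Lipo 2 (adjusted p = 0.140), Lipo 3 (adjusted p = 0.166) or WT 2 (adjusted p = 0.0602), out of adjusted p = 2.38e-11 to 0.166 over the 17 alternatives.

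FOSL1, which encodes FRA-1 and lies at chr11:65892049-65900573 on the minus strand, was the most abundant FOS family gene. Its level was 648, 740.2 and 895 CPM in TET1_KO, 1402 and 1298 CPM in TET1_OE, 811 and 808 CPM in Lipo and 944, 900.1 and 951 CPM in WT. TET1_OE stood above every other library, and WT above both Lipo and TET1_KO, which overlapped. FOSL1 was 1.67-fold higher in TET1_OE than in Lipo (log2 fold change 0.74, SE 0.15, adjusted p = 0.00457). The call was lost without TET1_OE 1 (adjusted p = 0.0618), Lipo 2 (adjusted p = 0.0590) or Lipo 3 (adjusted p = 0.0651), and it held with WT as the control (log2 fold change 0.54, adjusted p = 0.00926), out of adjusted p = 1.63e-15 to 0.0651 over the 19 alternatives. TET1_KO lay below WT in all 3 libraries, but the difference did not pass the test (log2 fold change -0.29, adjusted p = 0.133), except when TET1_KO 3 was left out (log2 fold change -0.42, adjusted p = 0.0160), out of adjusted p = 0.0160 to 0.296 over the 20 alternatives. Lipo against WT did not pass (log2 fold change -0.20, adjusted p = 0.449).

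FOSL2 encodes FRA-2, the other FOS family protein without a strong activation domain, and lies at chr2:28392448-28417312 on the plus strand. It had 91.9, 144 and 95.5 CPM in TET1_KO, 189 and 186 CPM in TET1_OE, 115 and 108 CPM in Lipo and 124, 137 and 133 CPM in WT. Both TET1_OE libraries were above all others, and TET1_KO 2 stood apart from the other TET1_KO libraries. FOSL2 was 1.68-fold higher in TET1_OE than in Lipo (log2 fold change 0.75, SE 0.18, adjusted p = 0.0163), and the call was lost without any 1 of these 4 libraries (adjusted p = 0.0944 to 0.152). With WT as the control it passed (log2 fold change 0.51, adjusted p = 0.0356), out of adjusted p = 5.93e-12 to 0.152 over the 19 alternatives. TET1_KO against WT did not pass (log2 fold change -0.25, adjusted p = 0.324), except without TET1_KO 2 (log2 fold change -0.48, adjusted p = 0.0176, out of adjusted p = 0.0176 to 0.611 over the 20 alternatives), nor did Lipo against WT (log2 fold change -0.23, adjusted p = 0.493).

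The promoters of FOS and FOSB, which were both lower in TET1_OE, and of FOSL2, which was higher, are printed from RefSeq (GRCh38.p14), 250 bases before to 50 after the annotated start, on the strand of the gene. They lie at chr14:75278578-75278877, chr19:45467746-45468045 and chr2:28392608-28392907. Capitals mark motif matches.
FOS: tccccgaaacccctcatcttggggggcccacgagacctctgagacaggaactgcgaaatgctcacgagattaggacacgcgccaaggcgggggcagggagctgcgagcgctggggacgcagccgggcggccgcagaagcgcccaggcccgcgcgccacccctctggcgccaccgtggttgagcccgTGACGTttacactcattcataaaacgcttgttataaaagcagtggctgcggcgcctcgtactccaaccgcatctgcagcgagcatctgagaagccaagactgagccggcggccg
FOSB: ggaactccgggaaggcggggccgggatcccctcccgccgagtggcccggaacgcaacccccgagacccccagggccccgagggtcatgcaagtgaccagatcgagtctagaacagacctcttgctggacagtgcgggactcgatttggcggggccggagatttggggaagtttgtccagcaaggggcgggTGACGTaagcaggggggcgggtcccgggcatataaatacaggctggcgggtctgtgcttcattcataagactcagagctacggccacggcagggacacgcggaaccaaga
FOSL2: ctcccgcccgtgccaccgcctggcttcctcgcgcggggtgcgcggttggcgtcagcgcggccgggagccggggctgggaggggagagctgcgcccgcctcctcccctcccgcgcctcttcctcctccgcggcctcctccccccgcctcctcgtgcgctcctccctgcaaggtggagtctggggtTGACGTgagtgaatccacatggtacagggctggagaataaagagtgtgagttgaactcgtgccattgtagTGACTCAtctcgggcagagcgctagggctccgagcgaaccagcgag
Both strands were searched for 5 motifs. These were TGANTCA, the classic AP-1 site, TGACGT, the core of the CRE element bound by CREB and ATF proteins, TGACATCA, the AP-1 variant known from the JUN promoter, the CArG box, bound by serum response factor, and GCGNGGGCG, bound by EGR1. They occurred in 7.71%, 7.98%, 2.61%, 1.29% and 9.43% of the 35116 RefSeq promoters of this length, in that order. All 3 promoters held TGACGT, at -64 in FOS, -60 in FOSB and -66 in FOSL2, counted from the start to the first base of the match. The FOSL2 window also held TGACTCA, a form of the AP-1 site, at 5 bases into the transcript. Of the 10 genes, 7 had their promoters searched, and FOSL1, IER3 and MYC, whose promoters were not searched, are named only.

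JUN, the founding partner of FOS, lies at chr1:58780788-58784327 on the minus strand. It had 195, 219 and 222 CPM in TET1_KO, 197 and 211 CPM in TET1_OE, 163 and 148 CPM in Lipo and 275, 203 and 207 CPM in WT. Lipo was below all 8 other libraries, and the other 3 groups overlapped. No comparison passed the test for JUN in the fit to all 10 libraries. The largest estimate was in Lipo against WT (log2 fold change -0.55, SE 0.14, adjusted p = 0.0516). It passed under 6 of the alternatives, among them without TET1_KO 1 (adjusted p = 0.0302), without TET1_KO 3 (adjusted p = 0.0360) and with DESeq2 (adjusted p = 0.0143), out of adjusted p = 0.0132 to 0.443 over the 17 alternatives. For TET1_OE against Lipo (log2 fold change 0.39, adjusted p = 0.132) the test passed with only the groups compared (adjusted p = 3.47e-06), and the sign turned with WT as the control (log2 fold change -0.16), out of adjusted p = 3.47e-06 to 0.799 over the 19 alternatives. TET1_KO against WT gave a 95% interval of -0.38 to 0.17 on the log2 scale (log2 fold change -0.11, adjusted p = 0.665).

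JUNB, a JUN relative that is itself an early gene and often opposes JUN, lies at chr19:12791496-12793315 on the plus strand. It shares 259 exon bases with HOOK2 on the other strand, and the sources used here do not say whether counting used strand, so reads of the overlap may belong to either gene. Its level was 139, 256 and 298 CPM in TET1_KO, 399 and 388 CPM in TET1_OE, 341 and 339 CPM in Lipo and 137, 204 and 222 CPM in WT. TET1_OE lay above Lipo, and both lay above TET1_KO and WT, which overlapped. TET1_OE against Lipo did not pass (log2 fold change 0.21, adjusted p = 0.680), nor did Lipo against WT (log2 fold change 0.86, adjusted p = 0.0716). JUNB was called in Lipo against WT under 5 of the alternatives, among them without TET1_KO 1 (adjusted p = 0.00698), without TET1_KO 3 (adjusted p = 0.0470) and with DESeq2 (adjusted p = 0.0121), out of adjusted p = 5.98e-06 to 0.383 over the 17 alternatives. TET1_OE against WT passed (log2 fold change 1.07, adjusted p = 0.00598), as did TET1_OE against Lipo with only the groups compared (adjusted p = 5.77e-04), out of adjusted p = 5.77e-04 to 0.838 over the 19 alternatives. The JUNB estimate did not pass in TET1_KO against WT (log2 fold change 0.30, adjusted p = 0.436), and it passed without TET1_KO 1 (log2 fold change 0.56, adjusted p = 0.0323) and with WT 1 and TET1_KO 1 left out together (log2 fold change 0.37, adjusted p = 0.0156), out of adjusted p = 0.0156 to 0.907 over the 20 alternatives.

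JUND, the JUN family gene known for steady rather than induced expression, lies at chr19:18279760-18281622 on the minus strand. It had 17.9, 28.6 and 33.2 CPM in TET1_KO, 52.3 and 47.7 CPM in TET1_OE, 46.8 and 42.7 CPM in Lipo and 18.2, 22.3 and 28.1 CPM in WT. The order was that of JUNB, with TET1_OE above Lipo and both above the overlapping TET1_KO and WT. JUND was 1.96-fold higher in Lipo than in WT (log2 fold change 0.97, SE 0.23, adjusted p = 0.0265). The call was lost without Lipo 2 (adjusted p = 0.227), Lipo 3 (adjusted p = 0.190), WT 1 (adjusted p = 0.0648) or WT 2 (adjusted p = 0.0867), out of adjusted p = 9.22e-06 to 0.227 over the 17 alternatives. With WT as its control, TET1_OE was higher (log2 fold change 1.13, adjusted p = 0.00214, out of adjusted p = 0.00214 to 0.931 over the 19 alternatives). TET1_OE against Lipo (log2 fold change 0.16, adjusted p = 0.735) and TET1_KO against WT (log2 fold change 0.22, adjusted p = 0.555) did not pass.

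The JUND promoter, at chr19:18281573-18281872 on the minus strand, is printed because JUND was higher in Lipo than in WT.
JUND: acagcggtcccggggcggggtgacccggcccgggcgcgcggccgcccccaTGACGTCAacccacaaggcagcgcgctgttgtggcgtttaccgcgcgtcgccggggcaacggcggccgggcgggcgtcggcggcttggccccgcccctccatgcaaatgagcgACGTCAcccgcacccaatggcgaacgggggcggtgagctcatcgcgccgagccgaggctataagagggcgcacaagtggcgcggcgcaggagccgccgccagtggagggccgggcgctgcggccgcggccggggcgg
It held TGACGT on both strands in 1 overlapping match that starts at -200, and on the minus strand of the window at -87. The JUN promoter held TGACATCA at -67, and none of the 5 motifs was found in the JUNB window. Over the 7 promoters, TGACGT was found in 5 and each of the other motifs in 1.

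EGR1, a zinc finger factor with several serum response elements in its promoter, lies at chr5:138465490-138469315 on the plus strand. It had 1025, 2058 and 1140.3 CPM in TET1_KO, 1435 and 1427 CPM in TET1_OE, 2137 and 2145 CPM in Lipo and 1912, 1486 and 1568 CPM in WT. Lipo was above every other library, and TET1_KO 2 was far above TET1_KO 1 and TET1_KO 3. No comparison passed for EGR1 in the fit to all 10 libraries. TET1_KO was below WT by estimate (log2 fold change -0.23, adjusted p = 0.511), as was TET1_OE below Lipo (log2 fold change -0.58, adjusted p = 0.147), and Lipo was above WT (log2 fold change 0.37, adjusted p = 0.397). Without TET1_KO 2, TET1_KO against WT passed (log2 fold change -0.61, adjusted p = 0.0103, out of adjusted p = 0.0103 to 0.896 over the 20 alternatives). TET1_OE against Lipo passed without TET1_KO 2, without a filter on low counts and with only the groups compared (adjusted p = 0.0185, 0.00408 and 5.59e-14, out of adjusted p = 5.59e-14 to 0.530 over the 19 alternatives).

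The EGR1 promoter, at chr5:138465229-138465528 on the plus strand, is printed because it held 3 of the 5 motifs.
EGR1: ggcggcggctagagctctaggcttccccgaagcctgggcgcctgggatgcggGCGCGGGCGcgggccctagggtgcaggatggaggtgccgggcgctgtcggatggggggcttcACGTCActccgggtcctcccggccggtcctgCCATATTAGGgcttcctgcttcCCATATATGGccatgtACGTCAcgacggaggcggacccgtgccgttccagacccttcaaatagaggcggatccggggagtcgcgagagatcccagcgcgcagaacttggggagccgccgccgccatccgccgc
CArG boxes began at -105 and -83, GCGNGGGCG at -198, and TGACGT, read on the minus strand, at -136 and -67.

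IER3, an early gene induced through NF-kB and ERK signalling that limits apoptosis, lies at chr6:30743199-30744554 on the minus strand. It shares 359 exon bases with IER3-AS1 on the other strand, and the limit named for JUNB applies. Its level was 11.6, 18.1 and 19.5 CPM in TET1_KO, 49.2 and 38.7 CPM in TET1_OE, 37.8 and 36.5 CPM in Lipo and 12.8, 18.1 and 19.0 CPM in WT. All TET1_OE and Lipo libraries were above all TET1_KO and WT libraries, and the last 2 groups overlapped. IER3 was 2.23-fold higher in Lipo than in WT (log2 fold change 1.16, SE 0.22, adjusted p = 0.00932), a call lost without Lipo 2 (adjusted p = 0.0931) or Lipo 3 (adjusted p = 0.109), out of adjusted p = 2.03e-07 to 0.109 over the 17 alternatives. TET1_OE against Lipo did not pass (log2 fold change 0.24, adjusted p = 0.567), while TET1_OE against WT did (log2 fold change 1.40, adjusted p = 3.49e-04), out of adjusted p = 3.49e-04 to 0.949 over the 19 alternatives. For TET1_KO against WT the 95% interval was -0.45 to 0.41 on the log2 scale (log2 fold change -0.02, adjusted p = 0.966).

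MYC, the growth-promoting factor that pairs with MAX, lies at chr8:127735434-127741434 on the plus strand. It had 317, 506 and 400.4 CPM in TET1_KO, 462 and 465 CPM in TET1_OE, 309.8 and 320.1 CPM in Lipo and 198, 245 and 267 CPM in WT. All WT libraries were below all others, and TET1_KO overlapped both TET1_OE and Lipo. MYC was 1.72-fold higher in TET1_KO than in WT (log2 fold change 0.78, SE 0.15, adjusted p = 0.00393), and the call held under each alternative tried for this comparison, with log2 fold changes of 0.60 to 0.94 (adjusted p = 4.27e-07 to 0.0199 over the 20 alternatives). It did not pass in TET1_OE against Lipo (log2 fold change 0.56, SE 0.19, adjusted p = 0.0703), although it passed under 8 of the alternatives (adjusted p = 1.39e-11 to 0.290 over the 19 alternatives). With WT as the control it was higher (log2 fold change 0.97, adjusted p = 9.66e-04). Lipo against WT did not pass (log2 fold change 0.41, adjusted p = 0.211).

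JUNB, JUND and IER3 were higher in each of the 4 TET1_OE and Lipo libraries than in any of the 6 TET1_KO and WT libraries, 3 of 10 genes against 6.58% of all genes tested. This split was noticed after the values were seen. The sources used here do not say whether the 4 libraries were prepared apart from the other 6, so batch and group cannot be told apart for differences between these sets. Mitochondrial shares, given above, were highest in Lipo and lowest in TET1_OE. With mitochondrially encoded genes left out of the counts, 2, 4 and 3 of the 10 genes passed in TET1_KO against WT, TET1_OE against Lipo and Lipo against WT, as many as with them.

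The effect of overexpression (TET1_OE minus Lipo) and that of knockout (TET1_KO minus WT) were compared in 1 model. They differed for FOS, FOSL1 and FOSL2, 3 of 10 against 16.6% of all genes tested. For FOS the overexpression effect minus the knockout effect came to -1.36 (log2, SE 0.30, adjusted p = 0.00702). For FOSL1 the difference was 1.03 (SE 0.19, adjusted p = 0.00183) and for FOSL2 it was 1.00 (SE 0.24, adjusted p = 0.0105). The FOSL2 difference was not called without Lipo 3 (adjusted p = 0.0637), out of adjusted p = 2.59e-04 to 0.0637 over the 16 alternatives. For FOSB, lower in both comparisons, the difference was -0.92 and did not pass (adjusted p = 0.103, 95% interval -1.70 to -0.14), although it passed without TET1_KO 1 (adjusted p = 0.0124), without WT 3 (adjusted p = 0.0229) and without a filter on low counts (adjusted p = 0.00116), out of adjusted p = 0.00116 to 0.258 over the 16 alternatives. The 6 other genes did not pass.

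Levels of different genes can be set side by side only per length. Per kilobase of exon, FOSL1 averaged 403 CPM in TET1_KO, 716 in TET1_OE, 429 in Lipo and 494 in WT. EGR1 averaged 449, 456, 682 and 527 CPM per kilobase in TET1_KO, TET1_OE, Lipo and WT. In every group these were the genes with the highest values of the 10, and JUND, FOSB, FOSL2 and IER3 were the lowest 4 in TET1_KO and WT. In TET1_OE the lowest 4 were FOSB, FOSL2, JUND and FOS. In Lipo, FOSB was at 44.6 CPM per kilobase, about the same as JUN at 44.0.

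As a share of the summed FOS family level per kilobase, FOSL1 made up 82.2 ± 3.63% in TET1_KO, 91.2 ± 0.0613% in TET1_OE, 75.3 ± 0.149% in Lipo and 82.9 ± 2.69% in WT (SD; 3, 2, 2 and 3 libraries). FOS made up 12.5%, 3.82%, 14.1% and 10.8%, and FOSB 2.04%, 1.61%, 7.83% and 3.16%, in TET1_KO, TET1_OE, Lipo and WT. FOSL1 was thus the main FOS family transcript in all 10 libraries, with the share of FOS smallest in TET1_OE. Among JUN family transcripts, JUNB made up 61.9 ± 6.88% in TET1_KO, 71.9 ± 0.649% in TET1_OE, 73.3 ± 1.21% in Lipo and 56.8 ± 9.10% in WT. JUN exceeded JUNB in 1 library, WT 1, at 47.7% against 46.3%. These shares are descriptions of RNA and were not tested.

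**Figure D3:**
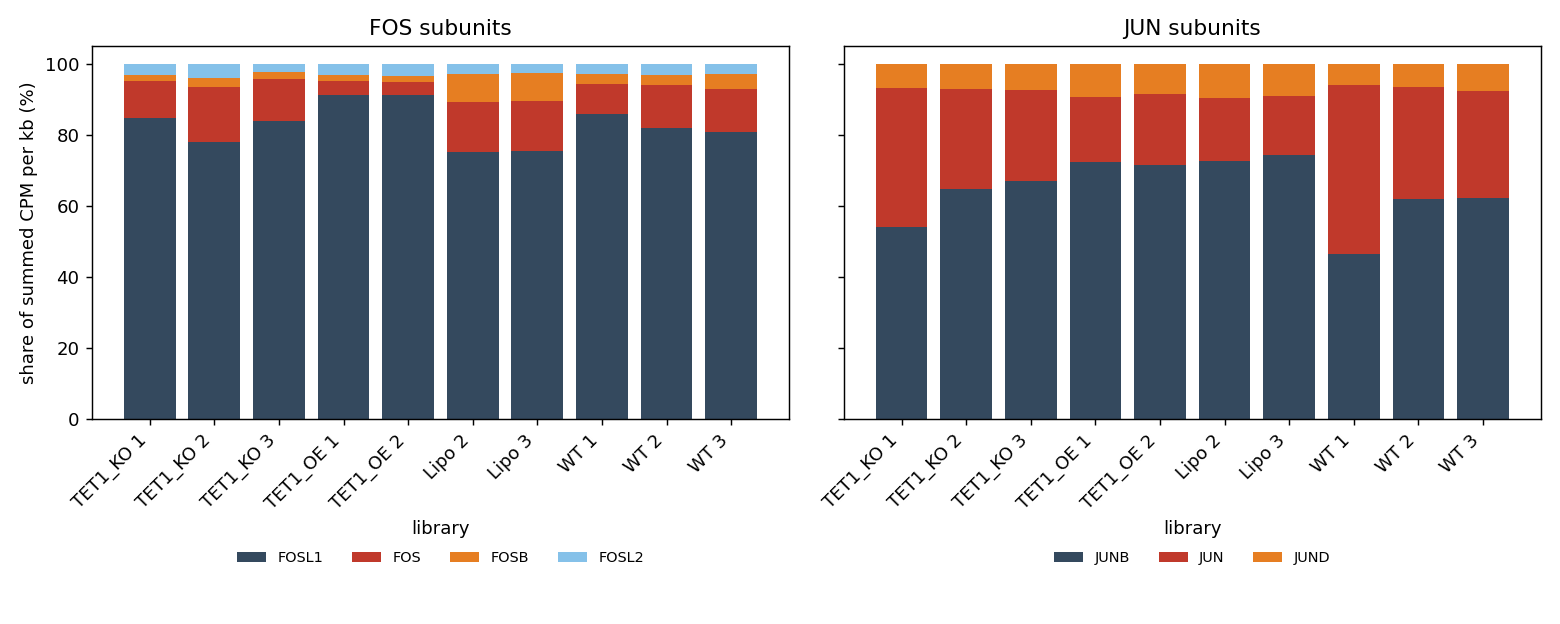
Share (y axis, %) of each FOS family gene (left panel) and JUN family gene (right panel) in the family's summed CPM per kilobase, in each of the 10 libraries (x axis). FOSL1 fills 75.2% to 91.3% of the FOS family bars, and JUN exceeds JUNB in WT 1.

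Within TET1_KO, each of the 10 genes had its lowest TET1_KO value in TET1_KO 1, and 5 had their highest in TET1_KO 2. In WT, 6 had their lowest value in WT 1 (FOS, FOSL2, JUNB, JUND, IER3 and MYC). The shares of all genes tested with these orders were not counted, so the orders are not shown to be particular to the 10. The SD of log2 CPM within TET1_KO ran from 0.10 for JUN to 0.58 for JUNB, beside a median of 0.28 over all genes tested. Within TET1_OE and Lipo the SDs of the 10 were at most 0.25 and 0.10, beside medians of 0.11 and 0.11. With 2 or 3 libraries a group, these SDs are themselves imprecise. With WT 1 and TET1_KO 1 left out, 3 of the 10 genes passed in TET1_KO against WT, and 2909 of all genes did. In the fit to all 10 libraries, 2 of the 10 and 1992 of all genes passed.

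**Figure D4:**
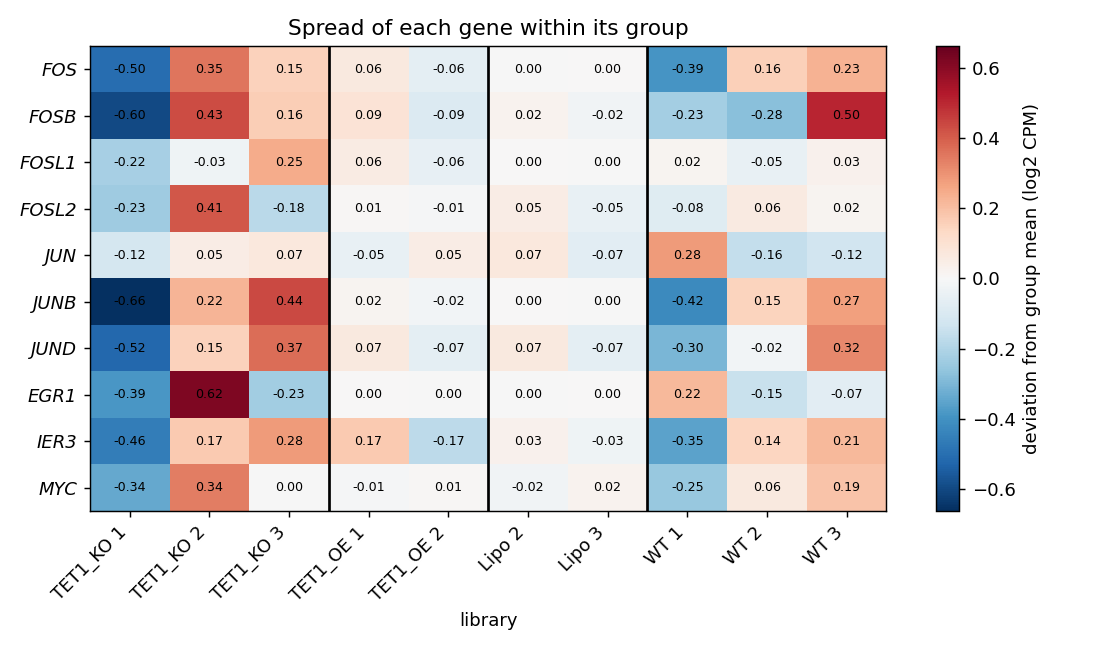
Deviation of each gene (rows) from its group mean in log2 CPM in each library (columns), blue below and red above, with the value in each cell. The TET1_KO 1 column is below its group mean for all 10 genes, and the TET1_OE and Lipo columns lie closer to 0.

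FOSB, IER3 and FOSL1 had the smallest p-values of the 10 in the test for any difference. The genes whose log2 CPM followed each most closely over the 10 libraries, out of 9114 candidates, were taken by Pearson's r, as a description. For FOSB they were CCNJL (r = 0.951), FGFRL1 (r = 0.946) and CORO2A (r = 0.939), and CCNJL averaged 36.5 CPM in TET1_KO, 44.6 in TET1_OE, 65.2 in Lipo and 49.6 in WT. For IER3 they were SNAPIN (r = 0.993), TRIB3 (r = 0.985) and SLC7A5 (r = 0.980). TRIB3 averaged 39.6 CPM in TET1_KO, 114 in TET1_OE, 105 in Lipo and 38.2 in WT. For FOSL1 they were PHF23 (r = 0.974), EVA1A (r = 0.970) and KRT7 (r = 0.969), and KRT7, a keratin of simple epithelia, averaged 1899 CPM in TET1_KO, 3466 in TET1_OE, 2237 in Lipo and 2607 in WT. The 10 libraries share cells, depth and groups, so the points are not independent.

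Genes known from the literature to act with, upstream or downstream of the 10 were counted in lists, and levels of list genes are mean ± SD over the 3 TET1_KO, 2 TET1_OE, 2 Lipo or 3 WT libraries. Of known target genes of AP-1, 49 were tested. Of these 49, 24 were lower and 1 was higher in TET1_KO than in WT, against 7.45% lower and 5.13% higher among all genes tested, and the median log2 fold change was -0.63. CD44, the hyaluronan receptor, averaged 0.0872 ± 0.0866 CPM in TET1_KO and 12.6 ± 3.71 CPM in WT (adjusted p = 9.07e-08). FN1, fibronectin, averaged 423 ± 74.1 CPM in TET1_KO and 2179 ± 549 CPM in WT (log2 fold change -2.36, adjusted p = 4.86e-07). PLAU, the urokinase protease, averaged 268 ± 29.3 CPM in TET1_KO and 639 ± 95.1 CPM in WT (log2 fold change -1.25, adjusted p = 1.10e-05), and the squamous envelope gene SPRR1B was also lower (log2 fold change -3.28, adjusted p = 2.18e-06). The gene that was higher was the gelatinase MMP9 (log2 fold change 1.82, adjusted p = 0.0145). Of the list, 22 to 29 genes passed under all 20 alternatives.

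Of the 49 target genes, 23 were higher and 2 were lower in TET1_OE than in Lipo, against 6.79% and 5.53% of all genes tested, with a median log2 fold change of 0.45. MMP13, a collagenase, had 443 and 463 CPM in TET1_OE and 20.4 and 19.5 CPM in Lipo (log2 fold change 4.50, adjusted p = 9.18e-10). LAMB3, a laminin chain of epithelial basement membrane, averaged 1677 ± 105 CPM in TET1_OE and 266 ± 20.9 CPM in Lipo (log2 fold change 2.66, adjusted p = 1.70e-07). The urokinase receptor gene PLAUR (log2 fold change 2.27, adjusted p = 2.57e-07) was higher too. IVL, a squamous envelope gene, and DUSP6, an ERK phosphatase, were the 2 that were lower. The count of 25 was lower without any 1 TET1_OE or Lipo library, where a group was left with a single library. With only the groups compared in the fit it was 40, and 5664 of all genes were called. In the fit to all 10 libraries, 1950 of all genes were. The effects of overexpression and knockout differed for 27 of the 49, all 27 in the direction of a higher value for overexpression, against 9.47% of all genes tested in that direction and 7.16% in the other.

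In Lipo against WT, 12 of the 49 target genes were lower and 0 were higher, against 2.38% and 1.32% of all genes tested, with a median log2 fold change of -0.19. MMP13 (log2 fold change -0.98, adjusted p = 0.00512), CD44 (log2 fold change -1.63, adjusted p = 0.0126) and the collagen-binding integrin gene ITGA2 (log2 fold change -0.78, adjusted p = 0.0129) were among those lower. The count was lower without either Lipo library, where a group was left with a single library. It was 5 without WT 2, where 318 of all genes were called, against 586 in the fit to all 10 libraries. The summed level of the fibroblast markers was 70.9 to 77.7 CPM in TET1_KO, 343 to 351 CPM in TET1_OE, 170 to 183 CPM in Lipo and 177 to 289 CPM in WT, and 2 of the 6 markers (COL1A1 and LUM) were tested, both lower in TET1_KO than in WT and both higher in TET1_OE than in Lipo. DCN and PDGFRB, defining fibroblast genes, were at 0 in every library. Of 6 leukocyte markers, 5 had a read in some library, with a summed level of 0.485 to 4.09 CPM. The 5 endothelial markers summed to 83.3 to 119 CPM. Nearly all of this was KDR, with group means from 82.4 CPM in Lipo to 114 CPM in WT. PECAM1, VWF, CDH5 and TEK had group means of at most 1.76 CPM (TEK in WT). Of the 5, 0 passed edgeR's test in any of the 3 comparisons. Unadjusted p was under 0.05 for 1, 0 and 2 of the 5 in TET1_KO against WT, TET1_OE against Lipo and Lipo against WT. Of the lung epithelial markers, 11 were tested. TET1_KO had 4 lower and 0 higher than WT, and TET1_OE had 1 higher and 1 lower than Lipo. Lipo had 2 lower and 0 higher than WT. These were 36.4%, 18.2% and 18.2% of the 11, against 12.6%, 12.3% and 3.7% of all genes tested.

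Of other immediate early genes, 48 were tested, with median log2 fold changes of -0.27 in TET1_KO against WT, 0.45 in TET1_OE against Lipo and 0.23 in Lipo against WT. TET1_KO had 12 lower and 1 higher than WT (DUSP2, 2.71 ± 1.73 CPM in TET1_KO and 0.0964 ± 0.0468 CPM in WT). Those lower included GEM, a small GTPase (log2 fold change -1.30, adjusted p = 1.72e-04), TNFAIP3, an inhibitor of NF-kB signalling (log2 fold change -1.48, adjusted p = 0.00175), and TIPARP, an ADP-ribosyltransferase (log2 fold change -0.81, adjusted p = 0.00281). Overexpression gave 16 higher and 5 lower in TET1_OE against Lipo. TNFAIP3 averaged 651 ± 5.54 CPM in TET1_OE and 35.2 ± 1.59 CPM in Lipo (log2 fold change 4.21, adjusted p = 9.07e-07). GEM (log2 fold change 2.36, adjusted p = 2.18e-06), the stress phosphatase regulator PPP1R15A (log2 fold change 1.32, adjusted p = 1.75e-05) and GADD45B (log2 fold change 1.57, adjusted p = 1.79e-05) were also higher. The 5 that were lower were NR4A1, ID1, EGR2, CCN2 and KLF2. Of these, the orphan nuclear receptor NR4A1 averaged 55.6 ± 9.43 CPM in TET1_OE and 164 ± 5.24 CPM in Lipo (log2 fold change -1.56, adjusted p = 0.00266), and the EGR1 relative EGR2 4.13 ± 2.39 CPM in TET1_OE and 14.3 ± 2.06 CPM in Lipo (log2 fold change -1.80, adjusted p = 0.0245). Called genes were 27.1% of the 48 in TET1_KO against WT, 43.8% in TET1_OE against Lipo and 18.8% in Lipo against WT, against 12.6%, 12.3% and 3.7% of all genes tested in the same order. The count of 21 was lower without any 1 TET1_OE or Lipo library, where a group was left with a single library. It was 37 with only the groups compared, where 5664 of all genes were called, against 1950 in the fit to all 10 libraries. In Lipo against WT, 9 were higher and 0 were lower, among them CSRNP1 (log2 fold change 1.44, adjusted p = 0.00152) and HES1, a NOTCH target (log2 fold change 1.75, adjusted p = 0.00748). That count was 1 without either Lipo library, 2 without TET1_OE 1, TET1_OE 2, WT 2 or WT 3, and 4 with library size alone as the scale.

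Early response genes of NF-kB signalling, the pathway to which IER3 belongs, were 18 in number and all were tested. As many as 15 were higher and 0 were lower in TET1_OE than in Lipo, against 6.79% and 5.53% of all genes tested, with a median log2 fold change of 1.98, and the count was 12 to 17 over the 19 alternatives. RELB, an NF-kB subunit, averaged 68.3 ± 2.06 CPM in TET1_OE and 10.1 ± 0.675 CPM in Lipo (log2 fold change 2.76, adjusted p = 1.26e-07). The signalling adaptor TRAF1 (log2 fold change 3.95, adjusted p = 1.98e-07) and the chemokine CXCL3 (log2 fold change 4.51, adjusted p = 2.95e-07) were higher as well. IER3 itself did not pass in that comparison. TET1_KO had 4 lower than WT (TNFAIP3, IER5, CXCL1 and ICAM1) and 0 higher, and in Lipo against WT, 2 were higher (IER5 and IER2). These were 22.2% and 11.1% of the 18, against 12.6% and 3.7% of all genes tested, and the medians were -0.11 and -0.08. The count of 4 was 2 without TET1_KO 3 or any 1 TET1_OE or Lipo library, and that of 2 was 0 without any 1 TET1_OE or Lipo library, WT 2 or WT 3 and 1 without TET1_KO 2. Some genes, TNFAIP3 and IER5 among them, stand in more than 1 list.

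Of other AP-1 partners and related bZIP factors, 31 were tested, with median log2 fold changes of -0.07 in TET1_KO against WT, 0.21 in TET1_OE against Lipo and 0.29 in Lipo against WT. Among them, 8 were higher and 1 was lower (CREB3L2) in TET1_OE than in Lipo, 9 of 31 against 12.3% of all genes tested. BATF2, which pairs with JUN proteins, averaged 159 ± 6.72 CPM in TET1_OE and 12.2 ± 0.113 CPM in Lipo (log2 fold change 3.71, adjusted p = 6.38e-09). The small MAF gene MAFF (log2 fold change 1.12, adjusted p = 6.57e-04) and ATF5 (log2 fold change 1.15, adjusted p = 5.97e-04) were also higher. NFE2L3 averaged 16.8 ± 2.27 CPM in TET1_OE and 2.23 ± 0.903 CPM in Lipo (log2 fold change 2.90, adjusted p = 5.94e-05). It had no reads in any TET1_KO library, against 3.59 ± 0.270 CPM in WT. In TET1_KO against WT, 2 factors were higher (NFE2 and CREB3L1) and 2 were lower (NFE2L3 and CREB3L2), and these 4 of 31 (12.9%) were near the 12.6% of all genes tested. In Lipo against WT, 5 were higher and 0 were lower, with CEBPD (log2 fold change 1.41, adjusted p = 0.00477) and NFE2 (log2 fold change 2.04, adjusted p = 0.00634) the first by p. The 5 were 16.1% of the 31, against 3.7% of all genes tested. The count of 4 for the knockout was 7 without TET1_KO 2 (1840 over all genes). With WT 1 and TET1_KO 1 left out it was 7 too (2909 over all genes). It was 9 with the replicate number as a block and 13 with all 5 WT and Lipo libraries as control. Calls over all genes were 3368 and 2888 under these last settings. The count of 9 for overexpression was 4 without Lipo 2 and 5 without Lipo 3, TET1_OE 1 or TET1_OE 2. That of 5 for Lipo was 1 without Lipo 2, 0 without Lipo 3 and 8 without TET1_KO 1.

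Of kinases and factors that signal to AP-1, 38 were tested, with median log2 fold changes of -0.19 in TET1_KO against WT, 0.06 in TET1_OE against Lipo and -0.04 in Lipo against WT. In TET1_KO against WT, 9 were lower and 1 was higher, the kinase gene RPS6KA5, and these 10 were 26.3% of the 38, against 12.6% of all genes tested. The p38 substrate kinase MAPKAPK2 averaged 86.7 ± 8.94 CPM in TET1_KO and 134 ± 5.96 CPM in WT (log2 fold change -0.63, adjusted p = 0.00180). ELK3 (log2 fold change -0.68, adjusted p = 0.00705), a partner of serum response factor, and MRTFB (log2 fold change -0.81, adjusted p = 0.00319), its coactivator, were also lower. The count of 10 was 3 with only the groups compared, 4 without WT 2 or WT 3 and 16 with WT 1 and TET1_KO 1 left out. Calls over all genes were 1216, 1125, 1238 and 2909 under these settings, against 1992 in the fit to all 10 libraries. The count was also lower without Lipo 2 or Lipo 3, where a group was left with a single library. TET1_OE had 2 higher (MRTFA and MAP2K3) and 4 lower (RPS6KA2, MAP2K6, RPS6KA3 and MAP3K7) than Lipo, and this count of 6 was 2 or 3 without any 1 TET1_OE or Lipo library and 10 without TET1_KO 3. In the fit to all 10 libraries, the 6 were 15.8% of the 38, near the 12.3% of all genes tested. The count was 19 with only the groups compared, 14 with WT as control and 12 with all 5 WT and Lipo libraries as control. Calls over all genes were 5664, 3953 and 3615 under these settings. In Lipo against WT, SRF, serum response factor itself, was the 1 that passed (log2 fold change 0.56, adjusted p = 0.0479), 2.63% of the 38 beside 3.7% of all genes tested, and it did not pass without TET1_KO 2 or any 1 TET1_OE, Lipo or WT library.

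Of partners and targets of EGR1, 17 were tested, with median log2 fold changes of -0.24 in TET1_KO against WT, -0.02 in TET1_OE against Lipo and -0.09 in Lipo against WT. TET1_KO had 5 lower than WT (FN1, PDGFB, F3, PTGES and ICAM1) and 0 higher. TET1_OE had 4 higher than Lipo (TXNIP, ICAM1, F3 and PDGFB) and 2 lower (NR4A1 and EGR2), and in Lipo against WT, 3 were higher, GDF15 and DDIT4 among them, and 1 was lower (TXNIP). Called genes were 29.4%, 35.3% and 23.5% of the 17 in TET1_KO against WT, TET1_OE against Lipo and Lipo against WT, against 12.6%, 12.3% and 3.7% of all genes tested. The count of 5 was 2 with only the groups compared and 3 without TET1_KO 1, WT 3 or any 1 TET1_OE or Lipo library, and the count of 4 in Lipo was 2 without Lipo 2 and 1 without Lipo 3.

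In the network around MYC, 20 genes were tested, with median log2 fold changes of 0.10 in TET1_KO against WT, -0.04 in TET1_OE against Lipo and 0.05 in Lipo against WT. PVT1, the long non-coding RNA next to MYC, averaged 47.7 ± 3.91 CPM in TET1_KO and 17.4 ± 2.32 CPM in WT (log2 fold change 1.46, adjusted p = 6.84e-06). MAX, the obligate partner of MYC, averaged 70.3 ± 9.81 CPM in TET1_KO and 48.5 ± 5.54 CPM in WT (log2 fold change 0.54, adjusted p = 0.0171), and TRRAP, a MYC cofactor, was the 1 that was lower (log2 fold change -0.47, adjusted p = 0.0328). Against Lipo, TET1_OE had higher MXD1 (log2 fold change 1.51, adjusted p = 1.27e-04), MAX (log2 fold change 0.67, adjusted p = 0.0161) and PVT1 (log2 fold change 0.58, adjusted p = 0.0414) and lower MXD3 (log2 fold change -1.48, adjusted p = 0.0187). Lipo against WT had 0 calls among the 20 by edgeR, with unadjusted p under 0.05 for 2, and 1 call by DESeq2, and 1 by edgeR without TET1_KO 1 or TET1_KO 3. These 3 of 20 for the knockout and 4 of 20 for overexpression stand beside 12.6% and 12.3% of all genes tested. The 3 knockout calls were 5 without TET1_KO 2 and 1 without WT 2 or WT 3. The 4 overexpression calls fell without any 1 TET1_OE or Lipo library, where a group was left with a single library. They were 11 with only the groups compared, where 5664 of all genes were called, against 1950 in the fit to all 10 libraries. Among 54 tested MYC target genes, 5 were higher in TET1_KO (NOP56, PA2G4, PES1, PAICS and NOP16) and 2 were lower (MCM4 and DDX21). These 7 of 54 compare with 12.6% of all genes tested, and the median log2 fold change was 0.12. The count was 1 without WT 3, 2 without WT 2, 11 without WT 1 and 20 with WT 1 and TET1_KO 1 left out. Calls over all genes were 1238, 1125, 2297 and 2909 under these settings, against 1992 in the fit to all 10 libraries. The count was also lower without any 1 TET1_OE or Lipo library, where a group was left with a single library. In TET1_OE against Lipo, 1 was higher (RRP12) and 2 were lower (PAICS and CDCA7), and in Lipo against WT, 1 was lower (IMPDH2). In the fit to all 10 libraries, these 5.56% and 1.85% of the 54 were below the 12.3% and 3.7% of all genes tested. The count of 3 for overexpression ran from 0 to 8 without 1 library, and that of 1 for Lipo from 0 to 3. The overexpression count was 37 with only the groups compared, 15 with WT as control and 13 with all 5 WT and Lipo libraries as control. Calls over all genes were 5664, 3953 and 3615 under these settings. The medians were 0.10 and -0.02.

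**Figure D5:**
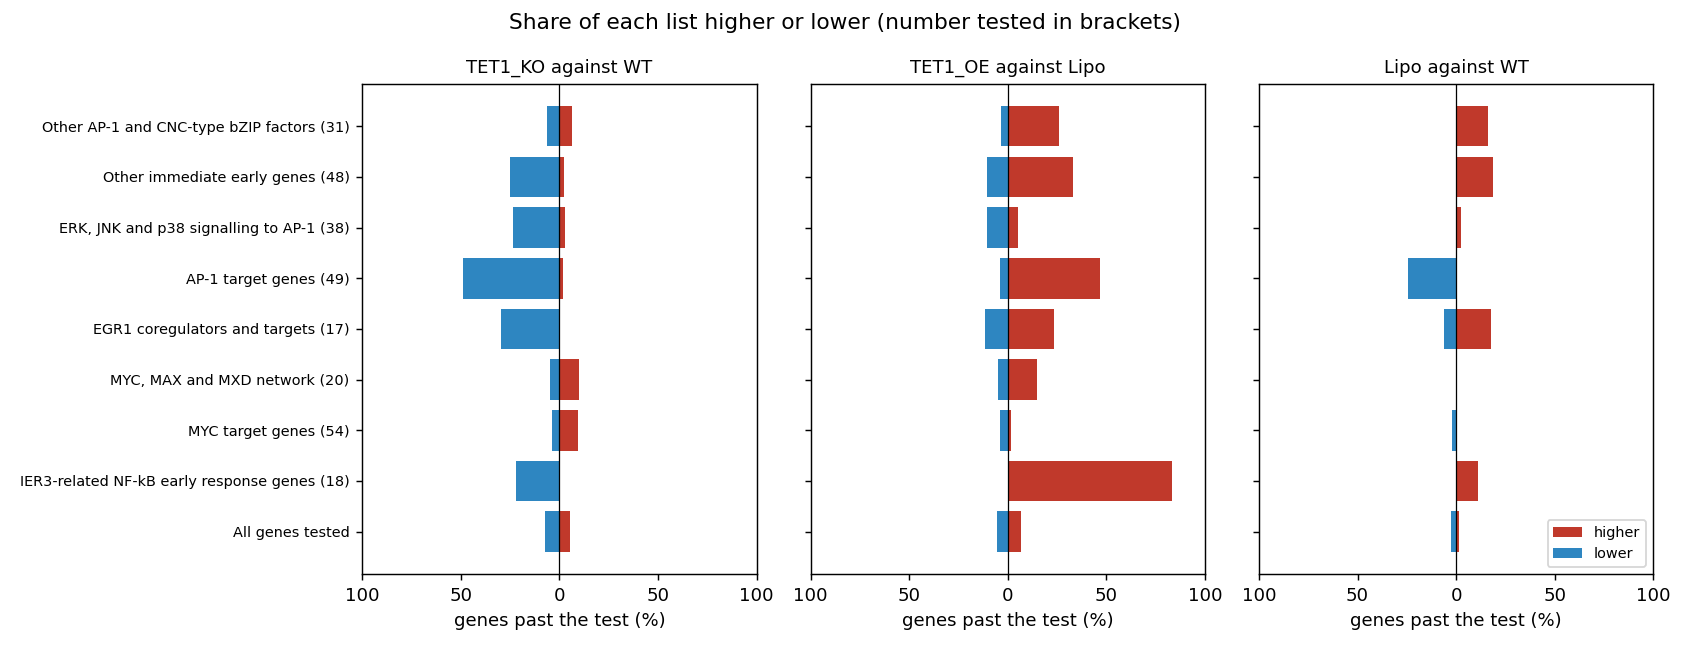
Share of tested genes past the threshold (x axis, %) that were higher (red, to the right) or lower (blue, to the left) in each gene list (rows, number tested in brackets) and in all genes tested, for 3 comparisons. AP-1 target genes point to the left in TET1_KO against WT and mostly to the right in TET1_OE against Lipo, where the NF-kB early genes have 15 of 18 higher.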

How the data were processed

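RNA of 10 libraries of the H441 line was analysed. The authors deposited 1 table of read counts for each gene, as whole numbers without normalization. HISAT2 2.1.0, featureCounts, edgeR, FastQC and the GRCh38 build are named in the submitters' processing notes, without their roles. The library kit was stranded, per the labels, and the use of strand in counting is not given in the sources used here. Of 62710 entries, 1 (ANK2) had no values and was left out, and 2 columns that matched no sample were not used.

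For the tests, edgeR 4.0.16 (R 4.3.3) was used. Its filterByExpr function, given the 4 groups, removed entries with low counts. TMM factors scaled the libraries, and the quasi-likelihood model, with robust estimation, took in all 10, which left 6 residual degrees of freedom. Tests were two-sided, with Benjamini-Hochberg adjustment over the 15832 genes tested and a threshold of 0.05. The script was tested on simulated data. No libraries of a group agreed within sampling noise. Chi-square per degree of freedom, which grows with disagreement beyond that noise, was 39.7 to 65.4 for pairs of TET1_KO libraries. It was 4.83 for TET1_OE and 6.16 for Lipo. In WT it was 6.36 for WT 2 with WT 3, and 42.8 and 46.6 for WT 1 with WT 2 and WT 3. CPM uses effective library sizes, and intervals are 95% and unadjusted. Positions and exon lengths are from GENCODE release 29 (GRCh38) and promoters from RefSeq.

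All 10 genes are named in each comparison. Of each list, up to 4 genes with the smallest p are named beside the counts, and any others were chosen after their values were seen. Values of some single genes are not reported here. For the 3 members with the smallest p for any difference, the 3 genes most like them are named, at a mean log2 CPM of at least 3. Members, lists and tests were chosen with earlier results of these data known. Alternatives were other normalizations, filters, controls, DESeq2 1.42.0, a replicate block, fits with only the groups compared, and leaving out each library.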

Additional observations from a re-analysis of the deposited data

Results flagged for a closer look

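The test of the difference between the effect of overexpression (TET1_OE minus Lipo) and that of knockout (TET1_KO minus WT) passed for 3 of the 10 genes. For FOS the difference was -1.359 on the log2 scale (adjusted p = 0.00702). For FOSL1 it was 1.03 (adjusted p = 0.00183), and for FOSL2 it was 0.9953 (adjusted p = 0.0105). The overexpression effects were -1.42, 0.74 and 0.75 for FOS, FOSL1 and FOSL2, against knockout effects of -0.06, -0.29 and -0.25 for the same genes, none of which passed in the knockout.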

How the results depend on the processing

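Of the results for single members under an alternative, 641 kept direction and side of the threshold, 38 were newly past it, 21 were no longer past it and 20 changed sign. In TET1_KO against WT, the 1992 calls over all genes became 1216 with only the groups compared, and 1125 to 2297 without 1 library. The 2 member calls became 1 with only the groups compared and 1 to 4 without 1 library. In TET1_OE against Lipo, the 1950 calls became 5664 with only the groups compared, 3615 with all 5 wild-type libraries as control, 3953 with WT as control and 673 to 2657 without 1 library, and the 4 member calls 8, 8, 7 and 2 to 6 under the same settings. In Lipo against WT, the 586 calls became 1100 without a filter, 992 with DESeq2 and 34 to 977 without 1 library, and the 3 member calls 5, 5 and 0 to 5. For the difference between effects, 2632 calls became 1373 to 3023 and 3 member calls 2 to 4 without 1 library. With WT 1 and TET1_KO 1 left out, an alternative added after the data were seen, TET1_KO against WT gave 2909 calls and 3 members.

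With the replicate number as a block and only the TET1_KO and WT libraries in the fit, 3368 genes and 2 members were called, against 1216 genes and 1 member for the same libraries without a replicate block. Deviations of same-numbered TET1_KO and WT libraries correlated at 0.328, 0.0577 and 0.185 for numbers 1, 2 and 3. Those of libraries with different numbers correlated at -0.238 to 0.0920. Deviations from a group mean cancel out over the libraries of that group. A positive correlation for 1 pair therefore forces a negative one for another, so these ranges are not independent. WT 2 was closer to TET1_KO 3 (0.0920) than to TET1_KO 2. Whether a shared number marks a batch is not given in the labels and was not tested. No paired analysis was possible for TET1_OE and Lipo because they share 1 number.

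No estimate that changed sign passed the threshold. In TET1_KO against WT FOS ran from -0.24 to 0.15, JUN from -0.18 to 0.048 and IER3 from -0.18 to 0.18 without 1 library. JUN was at 0.12, JUNB at -0.044 and JUND at -0.17 with all 5 wild-type libraries as control, and JUN at 0.10, EGR1 at 0.061 and IER3 at 0.012 with WT 1 and TET1_KO 1 left out. In TET1_OE against Lipo, JUN was at -0.16 with WT as control. For the difference between effects, JUNB ran from -0.35 to 0.13, JUND from -0.27 to 0.13 and EGR1 from -0.53 to 0.029 without 1 library. The causes were not tested. No alternative changed the number of reads, and every group had 2 or 3 libraries.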
